A study of Rattus norvegicus with 6 samples.

Results

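The enzymes of the tricarboxylic acid cycle were followed in rat pancreatic beta cells, as a set of 9 genes that runs from citrate synthase to malate dehydrogenase (Cs, Idh3a, Idh3b, Idh3g, Ogdh, Sucla2, Suclg1, Fh and Mdh2). A gene was measured where the platform annotation gives a probe set, the group of oligonucleotides that reads 1 transcript, a single symbol equal to its name, and the probe set with the highest mean over all arrays was used. By this rule 8 of the 9 genes had a probe set, out of 14217 genes and 31042 probe sets in all. Fh was not analysed here. The 8 genes were covered by 12 probe sets, and the 4 that were not chosen belonged to Cs and Sucla2 and served as a check. No member was picked by its own value, but earlier results of these data were known when the set was chosen.

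Beta cells were sorted by fluorescence from male Wistar rats of 10 weeks that were fed ad libitum or had been fasted for 24 h, with 3 Affymetrix arrays in each group. Each array was an independent isolation from 5 pooled rats, so that differences between single animals cannot be seen. The rats carried no transgene and received no agent, and fed and fasted rats differed by label in food alone. The sorted cells were 92 ± 3% insulin-positive by the labels and were frozen without culture. The question addressed here is how transcripts of the cycle differed between fed and fasted beta cells.

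The cycle burns the acetyl group that pyruvate dehydrogenase or fatty acid oxidation delivers to mitochondria, and passes its electrons as NADH and succinate to the respiratory chain. In beta cells the ATP made from this flux closes potassium channels and starts insulin release, so that the rate of oxidation of glucose helps to set the rate of secretion. Isocitrate dehydrogenase and oxoglutarate dehydrogenase, both activated by mitochondrial calcium, are the regulated steps inside the cycle.

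RefSeq (assembly GRCr8) gave a start site for 7 of the 8 measured genes, and Idh3a had none in the table used. The 250 bases before the start are shown for 3 of them, chosen after the array values and motif matches were seen. Ogdh had the largest difference between the groups, Mdh2 had the smallest standard error, and Idh3b was the member with higher mean intensity in fasted cells. They lie at chr14:85363781-85364030 on the plus strand, at chr12:26543842-26544091 on the minus strand and at chr3:137939991-137940240 on the minus strand. The bases are written 5′ to 3′ along the gene, and capitals mark the cAMP response element TGACGTCA and the CCAAT box, the latter written as ATTGG where it is on the opposite strand.
Ogdh: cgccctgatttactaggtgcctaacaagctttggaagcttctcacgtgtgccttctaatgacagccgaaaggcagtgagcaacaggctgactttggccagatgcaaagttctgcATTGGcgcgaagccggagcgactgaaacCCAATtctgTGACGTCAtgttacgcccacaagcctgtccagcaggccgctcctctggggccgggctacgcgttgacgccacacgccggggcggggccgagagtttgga
Mdh2: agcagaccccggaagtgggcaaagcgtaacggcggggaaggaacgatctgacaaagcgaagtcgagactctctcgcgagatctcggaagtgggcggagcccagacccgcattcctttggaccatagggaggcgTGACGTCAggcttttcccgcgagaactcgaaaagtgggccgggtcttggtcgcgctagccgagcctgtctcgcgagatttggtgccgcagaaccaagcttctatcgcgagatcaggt
Idh3b: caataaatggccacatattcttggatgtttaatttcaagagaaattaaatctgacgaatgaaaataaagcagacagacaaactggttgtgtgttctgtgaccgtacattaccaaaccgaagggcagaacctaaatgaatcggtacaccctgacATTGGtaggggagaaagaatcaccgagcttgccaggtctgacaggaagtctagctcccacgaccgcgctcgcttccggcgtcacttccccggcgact

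The element TGACGTCA, the palindrome bound by CREB and ATF factors, was found in 2 of the 7 sequences, at 99 to 92 bases before the start of Ogdh and at 117 to 110 bases before that of Mdh2. It is present in 1.59% of 33469 rat promoters of the same length. The CCAAT box was found on either strand in 4 of the 7 (Cs, Idh3b, Idh3g and Ogdh) and in 34% of all promoters, and the GC box GGGCGG in 4 (Cs, Mdh2, Ogdh and Sucla2) and in 30.5%. The E-box CACGTG was found before Ogdh alone and in 5.59% of all promoters. None of the 7 held TCAAGGTCA, the letters read by oestrogen-related receptors, which 0.388% of promoters hold. Both strands were searched, no motif overlapped another of a different name in these genes, and the motifs were chosen after the results of the arrays were known. A match of letters is a description of the window and was not tested as a binding site.

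The cell type was checked with marker genes. Ins1 intensity, for the first insulin gene, was 5719.4 to 6199.66 in fed and 5782.85 to 6299.18 in fasted isolates, and the summed intensity of 7 measured beta cell markers was 23603.2 to 24768.3 and 22725.3 to 24166. That sum is weighted to the brightest markers, and the markers did not all move alike. Mean intensity in fed and fasted cells was 7050 and 6672 for Iapp, without overlap. It was 1024 and 815 for Mafa, 3513 and 3042 for Slc2a2 and 753 and 703 for Nkx6-1, with overlap in each. For Ins2 it was 5784 and 5898, and for Pdx1 154 and 223, also with overlap. Glucagon (Gcg) intensity reached 7628.8 in fed replicate 2, the brightest value measured. The 4 alpha cell markers summed to 11074.3 there and to 6250.2 to 8542 on the other arrays. Fed replicate 2 was also highest in Ppy and in the sums of delta, leukocyte and stromal markers, but not in endothelial, acinar or duct markers. Summed intensity of 15 acinar markers was 73694.6 to 80203.2 in fed and 67304.8 to 78499.9 in fasted isolates. The acinar probe set of Cpb1 had a fed mean of 6844, above the 5959 of Ins1. For its human arrays the paper proposes that very abundant acinar RNA saturates the probes. Whether acinar or insulin probe sets were saturated here was not tested, so these values may not follow the amount of RNA. The 5 duct markers summed to 388 to 439.9 in fed and 462.7 to 551.5 in fasted cells, without overlap. Krt7 made up most of this sum, with means of 283 in fed and 365 in fasted cells. Krt7 and Krt19 (53 and 85.7) were higher in fasted cells without overlap. Muc1 was lower without overlap (36.5 and 24.4), while Cftr (16.2 and 13.2) and Spp1 (27.3 and 31.6) overlapped. The part of other cell types in the results below was not tested. Less RNA of a gene per cell and fewer cells that express it cannot be told apart in these samples.

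Fasted replicate 1 was the dimmest array. Its median intensity over all probe sets was 17.1, against 20.2 to 21.77 in fed cells, and fasted replicates 2 and 3 had 17.84 and 20.96. Its ratio of 3′ to 5′ signal for hexokinase, a measure of RNA integrity, was also the highest at 3.29. This ratio was 2.54 to 2.75 in fed cells and 2.79 and 1.65 in the other fasted isolates. For GAPDH the ratio was 1.22 in fasted replicate 1 and 0.972 to 1.16 on the other arrays. The labels give a minimum RNA integrity number of 8 for every isolate. The median log2 change of all genes was -0.19. When each array was divided by its 75th percentile, this median became 0.03, and the genes past the thresholds changed from 1352 lower and 326 higher to 638 lower and 671 higher. For this reason the log2 changes of the members, and of other genes past both thresholds, are also given relative to the median gene.

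In fasted cells 2 of the 8 transcripts, Ogdh and Sucla2, were lower by at least 1.5-fold at an unadjusted limma p under 0.05, and 0 were higher. Over all genes, 9.51% were lower and 2.29% higher by the same rule. Of the remaining 6, Cs, Suclg1 and Mdh2 had p under 0.05 with changes smaller than 1.5-fold, and Idh3a, Idh3b and Idh3g did not pass on p. By p alone 5 members were lower, where the share over all genes was 14.9%, and none higher, against 3.64%. In 6 members every fasted isolate lay below every fed isolate, as in 21.2% of all genes, and none had every fasted isolate above every fed one, as 5.76% of all genes had. A negative log2 change was found in 7 members and in 67% of all genes. No member passed after Benjamini-Hochberg adjustment over 31042 probe sets, where the lowest adjusted limma p among the members was 0.212, and neither did any other gene. The median log2 change of the 8 members was -0.43, or -0.23 relative to the median gene.

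Among brighter genes the background was higher. In the 9198 genes brighter than the median probe set, a group that holds all 8 members, 11.2% were lower by both thresholds and 19.5% at p alone. There 27.4% had no overlap with fasted cells lower, 71.6% had a negative log2 change, and the median log2 change was -0.22. The members lay at brightness percentiles of 81.1 (Idh3a) to 97.2 (Suclg1), so this group does not match their brightness. The 8 genes were chosen with earlier results of these data known, so that these shares are a description and no test of the set.

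**Figure D1:**
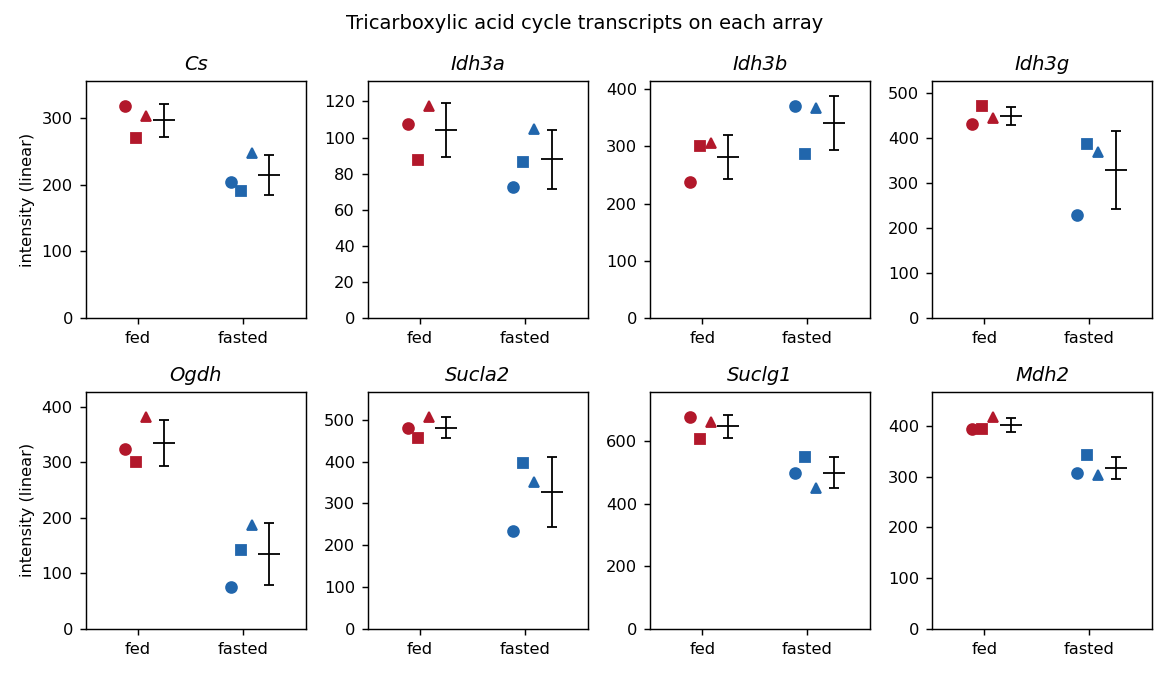
Linear intensity of the 8 measured cycle transcripts on each of the 6 arrays, with circles, squares and triangles for replicates 1, 2 and 3 of fed (red) and fasted (blue) cells, and bars for the mean ± SD of 3 arrays. Fasted isolates lie below all fed isolates in 6 panels, and overlap with them for Idh3a and Idh3b.

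The cycle starts with citrate synthase (Cs), which condenses acetyl-CoA with oxaloacetate. The Cs probe set 1375295_at gave intensities of 317.05, 269.44 and 302.52 in fed isolates and 203.74, 190.81 and 248.01 in fasted isolates. All fasted isolates were lower, and fasted replicate 2 was the lowest. The mean went from 296 ± 24.4 to 214 ± 30 (SD, n = 3), a log2 change of -0.47 (95% confidence interval -0.79 to -0.16, SE 0.13, limma adjusted p = 0.245), or -0.28 relative to the median gene. Cs had 3 further probe sets, and they did not give the same picture. The probe set 1369967_at read 135.74, 110.16 and 113.16 in fed and 40.66, 74.83 and 99 in fasted cells and passed both thresholds (log2 change -0.83, limma adjusted p = 0.325). The probe set 1384201_at, with no overlap of the groups, gave a log2 change of -0.26 (95% interval -0.65 to 0.14), and the dimmest, 1396453_at, overlapped and gave 0.03 (-0.62 to 0.67).

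Isocitrate dehydrogenase 3, the NAD-dependent enzyme of the cycle, is built from catalytic alpha subunits (Idh3a) together with beta (Idh3b) and gamma (Idh3g) subunits. Idh3a intensity was 107.74, 87.72 and 117.21 in fed and 72.36, 86.25 and 104.99 in fasted cells. The groups overlapped, since fasted replicate 3 lay above fed replicate 2, and the log2 change was -0.25 (-0.71 to 0.21, limma adjusted p = 0.521), or -0.06 relative to the median gene. Idh3g read 431.48, 470.76 and 444.46 in fed cells and 229.3, 387.79 and 370.19 in fasted cells. The fasted isolates were all lower, but their SD was 86.9 against 20 in fed isolates, and the log2 change of -0.49 had an interval of -0.99 to 0.02 (limma adjusted p = 0.344), and was -0.29 relative to the median gene. Without fasted replicate 1 the log2 change of Idh3g was -0.24 with an unadjusted limma p under 0.05, and without fasted replicate 2 it was -0.62, past both thresholds.

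Idh3b was the member with a positive change. Its intensity was 237.12, 299.58 and 305.9 in fed and 369.31, 285.66 and 366.03 in fasted cells. Fasted replicates 1 and 3 were above all fed isolates and fasted replicate 2 was among them. The mean was 281 ± 38 in fed and 340 ± 47.4 in fasted cells (SD, n = 3), a log2 change of 0.28 (-0.09 to 0.65, SE 0.15, limma adjusted p = 0.414), or 0.47 relative to the median gene. It reached a limma p under 0.05 when arrays were scaled to the 75th percentile (log2 change 0.52) or to the median (0.46), or without fasted replicate 2 (0.40), at less than 1.5-fold each time.

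Since scaling of an array cancels in a difference between probe sets on that array, the 3 subunits were set against each other within each isolate. The log2 difference of Idh3b over Idh3g was -0.86, -0.65 and -0.54 in fed and 0.69, -0.44 and -0.02 in fasted cells, so that all fasted isolates were above all fed ones by a mean of 0.76. The exact permutation test (two-sided) gave p = 0.1, the smallest that 3 against 3 isolates allow, and 0.3 after adjustment over the 3 pairs. The differences of Idh3b over Idh3a and of Idh3a over Idh3g overlapped between groups and moved by 0.53 (exact permutation p = 0.2, adjusted 0.3) and 0.23 (exact p = 0.4, adjusted 0.4). These pairs were chosen after the values were seen, and a difference between probe sets says nothing of which transcript is more abundant.

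Oxoglutarate dehydrogenase (Ogdh), the substrate-binding E1 subunit of the complex that turns 2-oxoglutarate into succinyl-CoA, had the largest change of the set. Its probe set 1390020_at gave 324.75, 299.92 and 381.45 in fed isolates and 76.08, 141.86 and 186.63 in fasted isolates. The highest fasted isolate was well below the lowest fed one, and fasted replicate 1 was far below the other two. The mean fell from 335 ± 41.8 to 135 ± 55.6 (SD, n = 3), to 40.2% of the fed mean. The log2 change, taken from means of log2 values, was -1.40 (-2.19 to -0.61, SE 0.33, limma adjusted p = 0.212), a 2.64-fold decrease on that scale. Relative to the median gene it was -1.21. Ogdh was past both thresholds in all 18 alternative settings, with log2 changes from -1.68 to -1.04, the latter without fasted replicate 1. Its adjusted p ranged from 0.0592 to 0.554 over these settings.

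**Figure D2:**
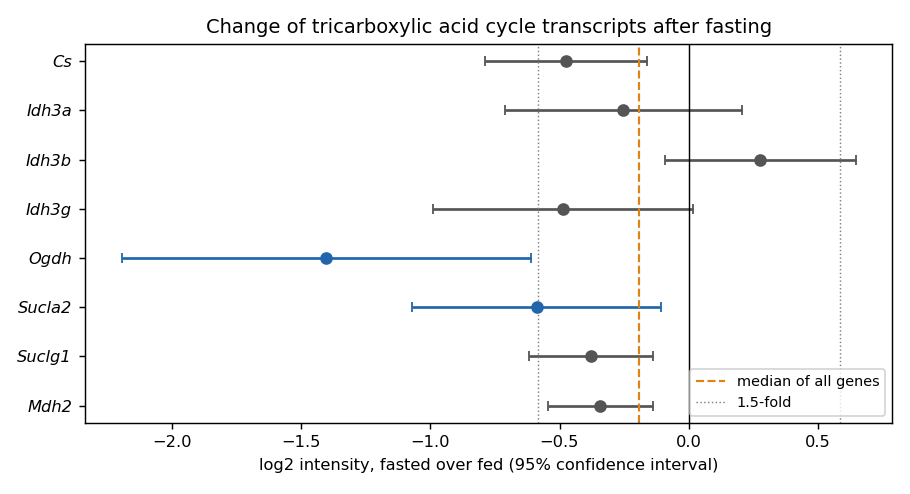
Log2 change of each member between fasted and fed cells, with the 95% confidence interval of the limma fit, the median of all genes (dashed, -0.19) and the 1.5-fold limits (dotted). Ogdh and Sucla2, in blue, passed both thresholds, and the interval of Ogdh lies wholly beyond 1.5-fold.

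Succinyl-CoA synthetase pairs a shared alpha subunit (Suclg1) with a beta subunit that makes either ATP (Sucla2) or GTP (Suclg2), and is the step of the cycle that yields a nucleotide directly. Sucla2 intensity was 480.84, 455.84 and 506.17 in fed and 234.4, 395.84 and 351.36 in fasted cells. All fasted isolates were lower, with fasted replicate 1 apart from the others. The mean fell from 481 ± 25.2 to 327 ± 83.4 (SD, n = 3), with a log2 change of -0.59 (-1.07 to -0.11, SE 0.20, limma adjusted p = 0.286) that is just past 1.5-fold, and of -0.40 relative to the median gene. This call was lost in 11 of 18 alternative settings, among them each of the 3 other scalings and leaving out fed replicate 1, 2 or 3 or fasted replicate 1. Without fasted replicate 1 the log2 change was -0.37, with an unadjusted limma p under 0.05 but less than 1.5-fold. The second Sucla2 probe set, 1381671_at, was dim at 6.49 to 10.94 over the 6 arrays and overlapped between the groups (log2 change -0.28, 95% interval -1.04 to 0.48).

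Suclg1 was tighter. It read 676.86, 606.07 and 660.12 in fed and 497.76, 549.78 and 450.83 in fasted isolates. Here fasted replicate 3, and not fasted replicate 1, was the lowest, and the groups did not overlap. The log2 change was -0.38 (-0.62 to -0.14, SE 0.10, limma adjusted p = 0.23), or -0.19 relative to the median gene. For the GTP-forming partner Suclg2, named for its role after its values were seen, the log2 change was -0.01 (-0.24 to 0.22), and 0.18 relative to the median gene.

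Malate dehydrogenase 2 (Mdh2), which closes the cycle by making oxaloacetate, gave 393.22, 394.39 and 417.11 in fed and 306.71, 341.96 and 302.53 in fasted cells. Both groups were tight and did not overlap. The mean went from 402 ± 13.5 to 317 ± 21.7 (SD, n = 3), a log2 change of -0.34 (-0.55 to -0.14, SE 0.08, limma adjusted p = 0.219). This is 79% of the fed level, and -0.15 relative to the median gene. Under scaling to the 75th percentile the log2 changes of Mdh2 and Suclg1 were -0.10 and -0.13, and neither had an unadjusted p under 0.05.

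The isolates differed in how far their cycle transcripts were from the mean. Averaged over the 8 members, the log2 intensity relative to the mean of the 6 arrays was 0.21, 0.16 and 0.31 in fed replicates 1 to 3 and -0.47, -0.15 and -0.06 in fasted replicates 1 to 3. The median of all genes on the same arrays was 0.11, 0.09, 0.09, -0.23, -0.10 and 0.04. The mean of the members was below the median gene by the widest margin in fasted replicate 1, where Ogdh was at -1.43 and Idh3b above its mean. A mean of 8 members is set here against a median of all genes, so these margins are not like for like. Fasted replicate 1 was the lowest array for 4 members (Idh3a, Idh3g, Ogdh and Sucla2), fasted replicate 3 for Suclg1 and Mdh2, fasted replicate 2 for Cs, and fed replicate 1 for Idh3b. The part of RNA integrity or of array level in this order was not tested.

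**Figure D3:**
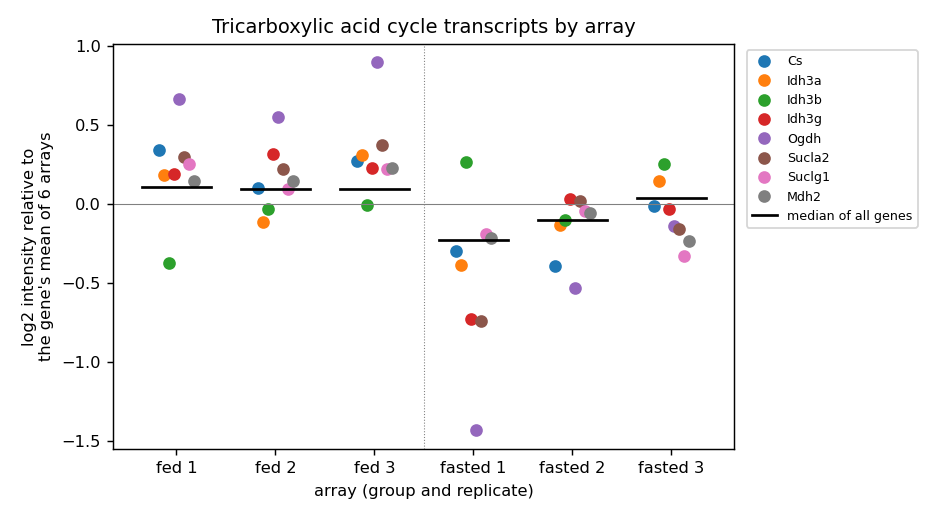
Log2 intensity of each member relative to its own mean of 6 arrays, by array, with a black line for the median of all genes on that array. Ogdh ranges from 0.89 in fed replicate 3 to -1.43 in fasted replicate 1, and Idh3b alone is above 0 in fasted replicate 1.

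**Figure D4:**
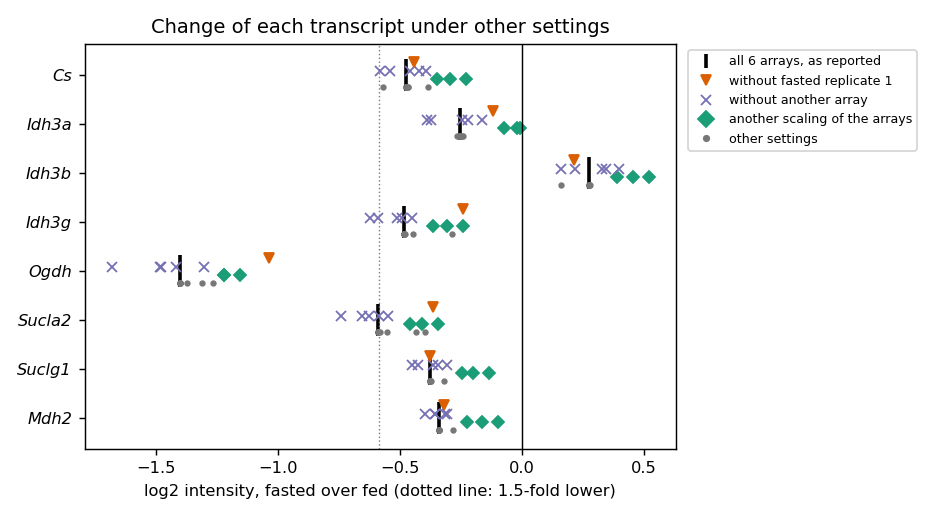
Log2 change of each member as reported (black bars) and under 18 other settings, with the scalings, the array left out and the remaining choices in separate colours. Leaving out fasted replicate 1 (orange) or rescaling the arrays (green) moves most members towards 0, Idh3b moves further above 0 with rescaling, and Ogdh stays past the dotted 1.5-fold line throughout.

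The other subunits of the cycle were taken from a list of 9 symbols, of which 7 were measured. None passed both thresholds, and 1 was lower at p alone (14.3%, against 14.9% of all genes). The median log2 change was -0.22 (-0.03 relative to the median gene). By absolute moderated t the leading genes were Sdhc, a membrane anchor of succinate dehydrogenase, with -0.26 (limma adjusted p = 0.317), Dld with -0.52 (adjusted p = 0.338) and Sdhb, the iron-sulphur subunit, with -0.22 (adjusted p = 0.359). Dlst and Dld, the E2 and E3 partners of Ogdh in its complex, were described in full for this reason, Dlst after its values were seen. Dlst intensity was 200.32, 202.87 and 222.83 in fed and 100.9, 180.78 and 175.99 in fasted cells, a log2 change of -0.50 (-1.07 to 0.08, limma adjusted p = 0.371). Dld, which is shared with pyruvate dehydrogenase, read 345.95, 335.64 and 321.49 in fed and 164.29, 282.32 and 273.59 in fasted cells. In both, the groups did not overlap and fasted replicate 1 was far below the rest, as it was for Ogdh. Dld passed both thresholds without fasted replicate 2 (-0.66) or without fasted replicate 3 (-0.63), and was -0.27 without fasted replicate 1.

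Pyruvate enters the cycle through pyruvate dehydrogenase, which phosphatases activate and kinases inhibit, or through pyruvate carboxylase. Of 13 measured genes for this entry 2 (15.4%) were lower past both thresholds, against 9.51% of all genes, and 0 were higher. A negative log2 change was found in 10, against 67% of all genes. The median log2 change was -0.27 (-0.07 relative to the median gene). Pdp1, the calcium-sensitive phosphatase that activates pyruvate dehydrogenase, read 132.16, 129.21 and 133.58 in fed and 41.95, 39.91 and 88.68 in fasted cells. The fed isolates were nearly equal and every fasted isolate was lower, with a log2 change of -1.31 (SE 0.32, limma adjusted p = 0.218), or -1.12 relative to the median gene. It kept both thresholds in all 18 alternative settings. Pdha1, the E1 alpha subunit, fell by 0.63 on the log2 scale (limma adjusted p = 0.313, -0.44 relative to the median gene), a call that 6 of the 18 settings kept, and Pc, pyruvate carboxylase, had a log2 change of -0.57 (limma adjusted p = 0.29) that did not reach 1.5-fold. Pdha1 lost its call without any 1 of the fed isolates or without fasted replicate 1, at log2 changes from -0.69 to -0.36, and without fasted replicate 3 Pc was -0.73, past both thresholds. The inhibiting kinases, described after their values were seen, had log2 changes of -0.40 (Pdk1), -0.92 (Pdk2), -0.36 (Pdk3) and 0.34 (Pdk4). Only Pdk2 did not overlap between groups. The second phosphatase, Pdp2, had 0.05, and none of these genes passed both thresholds.

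Metabolite carriers, shuttle enzymes and cytosolic counterparts of cycle enzymes made a list of 20, with 19 measured. There 3 (15.8%) were lower past both thresholds, against 9.51% of all genes, and 0 were higher. In 8 of the 19 every fasted isolate lay below every fed one, as in 21.2% of all genes. The median log2 change was -0.25 (-0.05 relative to the median gene). Aco1, the cytosolic aconitase that also binds iron-responsive RNA elements, was 93.63, 83.55 and 81.05 in fed and 50.58, 55.14 and 61.25 in fasted cells (log2 change -0.63, limma adjusted p = 0.207). Pck2, mitochondrial phosphoenolpyruvate carboxykinase, which draws on oxaloacetate, fell by 0.60 on the log2 scale (limma adjusted p = 0.224). Got1, cytosolic aspartate aminotransferase of the malate-aspartate shuttle, read 127.26, 160.49 and 147.6 in fed and 38.76, 80.05 and 109.17 in fasted cells, with a log2 change of -1.05 (limma adjusted p = 0.297). None of these 3 overlapped between groups, and relative to the median gene they were -0.44 (Aco1), -0.41 (Pck2) and -0.86 (Got1). Aco1 and Pck2 fell short of 1.5-fold under each of the 3 other scalings, at -0.45 to -0.36. They also did so without fed replicate 1 or fasted replicate 1 (Aco1, -0.57 and -0.56) and without fed replicate 1 or 3 or fasted replicate 1 or 2 (Pck2, -0.58 to -0.52). Got1 lost its call on p without any 1 of the fed isolates or without fasted replicate 2, at -1.15 to -0.98. The call was also lost on p with a floor at the 25th percentile of intensity and with linear means. Without fasted replicate 1 Got1 kept the call, but its log2 change was -0.63. Mdh1, the cytosolic malate dehydrogenase, had a smaller log2 change with an unadjusted p under 0.05 (-0.29, limma adjusted p = 0.264).

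In the respiratory chain, which takes the electrons from the cycle, 65 genes were measured. Past both thresholds 4 were lower, 6.15% of the list against 9.51% of all genes. In the other direction 2 were higher, and 2.29% of all genes were. At p alone 28 were lower, 43.1% of the list against 14.9% of all genes and 19.5% of the brighter ones, and the median log2 change was -0.18 (0.01 relative to the median gene). The pair with the largest absolute moderated t moved in opposite directions. Cox7a2l, a protein of respiratory supercomplexes, read 455.86, 462.56 and 462.14 in fed and 720.74, 726.15 and 655.34 in fasted cells (log2 change 0.61, limma adjusted p = 0.155). Ndufa4, a subunit of cytochrome c oxidase once assigned to complex I, read 1002.16, 914.77 and 1020.75 in fed and 533.7, 629.28 and 661.16 in fasted cells (-0.69, limma adjusted p = 0.157). Relative to the median gene Cox7a2l was 0.80 and Ndufa4 -0.50. Cox7a2l was under 1.5-fold without fasted replicate 1 or fasted replicate 2 (0.58 each), and Ndufa4 under the 3 other scalings (-0.57 to -0.45).

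**Figure D5:**
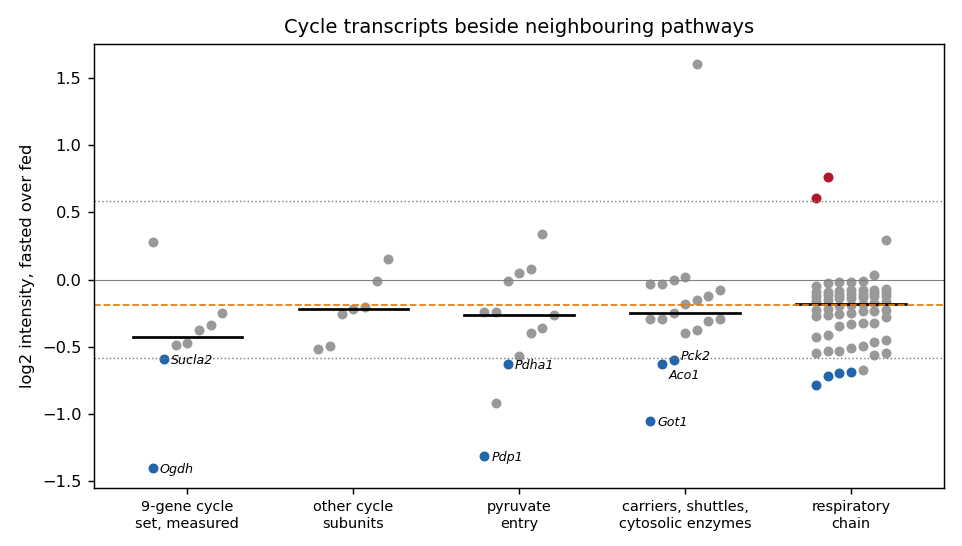
Log2 change between fasted and fed cells of each measured gene in the cycle set and in 4 neighbouring lists, with blue for lower and red for higher past both thresholds, black lines for the list medians and a dashed line for the median of all genes. The cycle set has a median of -0.43 and the other lists lie between -0.27 and -0.18.

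The genes whose course over the 6 arrays was nearest to the mean course of the 8 members were Ntan1, Cat, Trappc13 and Park7, out of 9190 genes brighter than the median probe set. The likeness was measured as the root mean square difference of log2 values centred on each gene's mean, and was 0.0404, 0.0421, 0.0427 and 0.0444 in this order. Their log2 changes were -0.40, -0.40, -0.44 and -0.44, near the members' median, which follows from how these genes were picked.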

How the data were processed

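Linear intensities of 6 rat arrays were used. Per the paper's methods, the authors made the deposited intensity of each probe set with dChip (model-based expression, mismatch subtraction, normalization to the array of median brightness), but the dChip version was not given in the sources used here, nor was a genome build for the arrays. The array is called RG230A there, and the table holds 31042 probe sets beside 57 controls. Symbols came from the platform annotation: 20826 probe sets had 1 symbol, 436 several and 9780 none. Gene coordinates were not used, and promoters were read from a RefSeq table.

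Controls were left out, and 3.27, the 10th percentile, was set as the lowest value before log2 was taken. Fasted and fed arrays were then compared in limma (version 3.58.1, R 4.3.3) by lmFit and by eBayes with a trend on intensity, two-sided and without a block. Benjamini-Hochberg adjustment covered all 31042 probe sets. The thresholds were those of the study, 1.5-fold and unadjusted p under 0.05. At these thresholds the paper reports a much smaller share of changed transcripts than limma gave here. In limma 2616 of the 31042 probe sets (8.43%) were lower and 737 higher, so the counts are not comparable with the paper's. The cause of this difference was not tested. A difference relative to the median gene is the log2 change minus the median over 14217 genes, each with its brightest probe set. With 3 against 3 arrays an exact permutation p cannot go under 0.1, and the number of arrays limits the precision. No 2 arrays held identical values, and their correlations were 0.877 to 0.961.

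Described by name were all members and the 4 genes most like them. In each list of neighbouring genes other than the respiratory chain, those past both thresholds and the 3 with the largest absolute moderated t were named, and in the respiratory chain only the 2 with the largest absolute moderated t. Suclg2, Dlst, Pdp2, the Pdk genes and the single beta cell and duct markers other than Ins1 were added after their values were seen. The members and lists were chosen with earlier results of these data known. Alternatives covered scaling (quantile, 75th percentile, median), the floor (25th percentile, 7.53, or a pseudocount of 3.27), dim probe sets, variance model, gene-by-gene array weights, a replicate block, linear means with unequal variances, averaging the probe sets of a gene, and leaving out each array. Median scaling and the other probe sets of Cs and Sucla2 were chosen after seeing the data. The fit was tested on simulated data. Plots were made in Python 3.11.15 (matplotlib 3.10.9).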

Additional observations from a re-analysis of the deposited data

How the results depend on the processing

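Of 144 log2 changes of the 8 members over 18 alternative settings, 132 kept their direction and their side of the thresholds, 11 (all Sucla2) lost the call, 1 (Idh3g without fasted replicate 2) gained it, and 0 changed sign. The members past both thresholds were 1 (Ogdh) in place of 2 under quantile normalization, 75th percentile scaling, median scaling, the pseudocount, array weights, linear means and the mean of all probe sets, and 1 to 3 when an array was left out, with 3 (Idh3g added) without fasted replicate 2. At p alone 1 member was lower under 75th percentile scaling and 2 under median scaling. The members' median was -0.30 under quantile normalization and under array weights, -0.18 under 75th percentile scaling and -0.25 under median scaling. These scalings moved the median of all genes from -0.19 to -0.01, 0.03 and -0.02 in the order quantile, 75th percentile, median, and the genes lower and higher to 728 and 573, 638 and 671, and 794 and 551. Without fasted replicate 3, 2663 genes were lower, and without fed replicate 1, 704.

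In the neighbouring lists the same 3 scalings left 1 lower gene for pyruvate entry, 1 for carriers and shuttles and 0 for the respiratory chain. The median of the other cycle subunits was 0.023 under 75th percentile scaling, where the sign turned, and -0.042 under median scaling. That of pyruvate entry was -0.022 under 75th percentile scaling. That of carriers and shuttles was -0.065 under quantile normalization, -0.0017 under 75th percentile scaling and -0.067 under median scaling, and that of the respiratory chain was -0.060, 0.065 (sign turned) and -0.00052. Pyruvate entry had 1 lower gene with the floor at the 25th percentile, without the intensity trend, with array weights, with linear means and with the mean of all probe sets, and 1 higher with array weights. Carriers had 1 higher with the pseudocount, with dim probe sets left out, with robust variance and with array weights. The respiratory chain had 1 higher with the floor at the 25th percentile, without the trend, with linear means and with the mean of all probe sets. When an array was left out, lower genes were 0 to 1 for other cycle subunits, 1 to 3 for pyruvate entry (higher 0 to 1), 0 to 3 for carriers (higher 0 to 1, median -0.32 to -0.12) and 1 to 7 for the respiratory chain (higher 0 to 3). Suclg2 turned in sign to 0.11, 0.24, 0.17 and 0.055 under quantile, 75th percentile, median scaling and array weights, and lay between -0.064 and 0.061 with an array left out. Sdhb was 0.023 under 75th percentile scaling. The causes were not tested.

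Arrays of the same replicate number did not deviate together (correlations of -0.02, 0.10 and -0.08 over 15520 probe sets), so the numbers were not taken as pairs. With the replicate block 1109 genes were lower in place of 1352, and the members lower by both thresholds were again 2, Ogdh and Sucla2, while Idh3g reached an unadjusted p under 0.05 at less than 1.5-fold. After adjustment 0 probe sets passed in limma with the settings of the report, where 2117 genes were lower and 517 higher at an unadjusted p under 0.05. The pseudocount, the filter on dim probe sets, robust variance and the floor at the 25th percentile gave 83, 124, 88 and 1 adjusted calls over all probe sets, and the other alternatives 0.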
